A study of Mus musculus with 8 samples.

Results

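The blood-testis barrier junction genes described here were Cldn1, Cldn3, Cldn5, Cldn11, Ocln, F11r, Tjp1, Gja1 and Cdh2. These 9 genes were taken by name, as every probe other than a control whose gene name in the array files was one of them. No cutoff on their levels was applied, but the genes were chosen with earlier results of these data known. They were 9 of 27962 gene names in the array files and were covered by 14 of the 41174 probes. All 9 genes had at least 1 probe well above background. Total RNA of mouse testes at postnatal day 8 was measured on 1-color Agilent whole genome arrays, which read 1 Cy3-labeled sample per array. The groups were 4 wild type and 4 VRK1-deficient males, and the labels call the samples of each group biological replicates. VRK1-deficient mice carry a gene trap from 1 embryonic stem cell clone, a β-geo reporter inserted in an intron of Vrk1, and the study describes the allele as hypomorphic, with some full-length VRK1 remaining. No other allele or agent is named for either group.

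The blood-testis barrier is a belt of junctions between neighboring Sertoli cells near the base of the seminiferous tubule, and it separates dividing spermatogonia from meiotic and postmeiotic germ cells. Tight junctions seal the belt through claudins, occludin and junctional adhesion molecules, which are held to actin by zonula occludens scaffold proteins, while N-cadherin and connexin 43 build the adherens and gap junctions beside them. In the mouse the barrier is assembled in juvenile life, as meiosis begins, so the testes measured here precede a closed barrier.

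All values below are log2 signals, each relative to the 75th percentile of its array, and a difference is VRK1-deficient minus wild type on that scale. A change was called at a limma p-value under 0.05 after Benjamini-Hochberg adjustment over all 26948 tested probes. Vrk1 itself fell by 4.00 on the log2 scale (SE 0.21, limma adjusted p = 0.0001351), to 6.23% of wild type, and by 2.79 with normexp background correction. The wild type 1 array stood apart from its group. It correlated at 0.987 to 0.990 with the VRK1-deficient arrays over the tested probes and at 0.970 to 0.986 with the other wild type arrays. The mean of its 8 germ cell markers, at 1.17, was the lowest of the wild type arrays. Its brightest Vrk1 probe was at -0.201, beside -0.115 to 0.588 on the other wild type arrays and -4.166 to -3.577 on VRK1-deficient arrays. Wild type 3 also correlated at 0.970 to 0.986 within its group, but at 0.963 to 0.976 with the VRK1-deficient arrays. On each slide wild type samples lay at the first positions and VRK1-deficient samples at the last, so position and genotype cannot be told apart. In whole testis, fewer cells of a type and less RNA per cell cannot be told apart either.

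For Gja1 and Cldn1, which were called, and for Cldn3 and Cldn11, the claudins with lower means, the sequences that measured them are given by the first 30 bases of each 60-base probe, in lower case, 5′ to 3′, since they show which part of the transcript was read. Positions are those in the array files, on mouse build mm7, and whether a probe lies in coding sequence or an untranslated region was not analysed here.
Cldn1 brightest probe: ctctctcaaatgaggagttcctaaagctta
Cldn1 second probe: aggattgacattaacgccttagactgttga
Cldn3 probe: tgtccaagccgaatggacaaagaaacctcg
Cldn11 probe: atatgcaataaataatagtacgaagattat
Gja1 probe: ctacacattaactcagaacttgtattctga
The Cldn1 probes lie at chr16:26018826-26018885 and chr16:26020464-26020523 on the minus strand and share no base. The Cldn3 probe lies at chr5:133958589-133958648, the Cldn11 probe at chr3:30976006-30976065 and the Gja1 probe at chr10:56207239-56207298, each on the plus strand. The Gja1 probe was spotted 10 times on each array and its spots were averaged, whereas every other member probe had 1 spot.

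Of the 9 members, Gja1 and Cldn1 rose in VRK1-deficient testes and no member fell past the threshold. Gja1, which encodes connexin 43, showed the largest rise in RNA at 2.01-fold, and Cldn1 rose 1.68-fold and 1.78-fold by its pair of probes. Cldn3 and Cldn11 were lower by 0.70 and 0.29 without passing the test. Thus 2 of 9 members were called, beside 3.66% of all tested probes. An unadjusted limma p under 0.05 was found for 5 of the 9, beside 28.8% of tested probes, and 3 of the 9 had no overlap between genotypes, beside 16.7%. With each gene read by its brightest probe, the median difference of the members was 0.26, with 5 above and 4 below 0, while the median over all tested probes was 0.04.

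**Figure D1:**
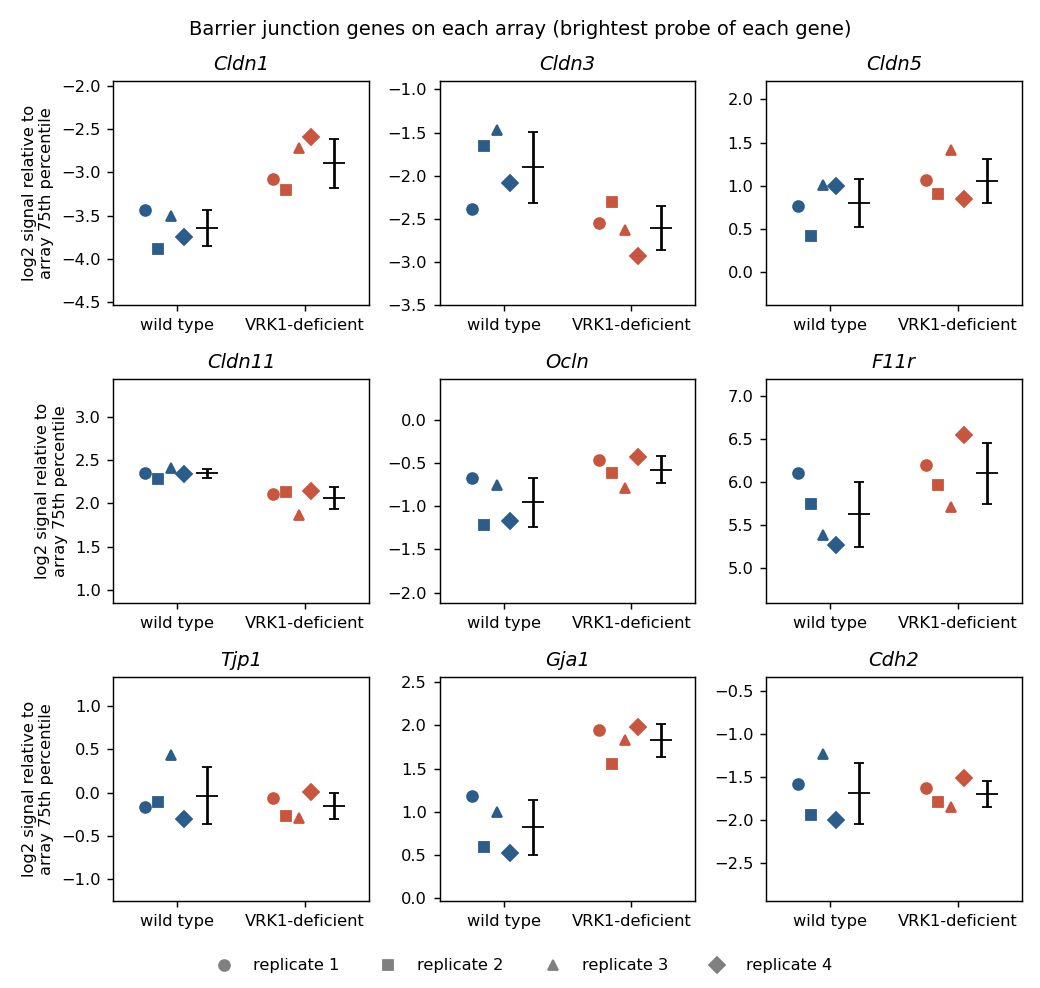
Log2 signal of each barrier junction gene over the array's 75th percentile, for 4 wild type arrays (blue) and 4 VRK1-deficient arrays (red); marker shapes give the replicate number, black bars the mean ± SD, and every panel spans the same number of log2 units. The VRK1-deficient arrays lie above all wild type arrays for Gja1 and Cldn1, below them for Cldn11, and overlap them for the other members.

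Connexin 43 forms the main gap junction channels of Sertoli cells, through which they pass small molecules to each other and to germ cells. Gja1 was at 1.18, 0.59, 0.99 and 0.52 on wild type arrays 1 to 4 and at 1.94, 1.55, 1.83 and 1.99 on VRK1-deficient arrays 1 to 4. All VRK1-deficient arrays were higher than all wild type arrays, as they were for 9.40% of tested probes. The mean rose from 0.82 ± 0.32 (SD, n = 4) to 1.83 ± 0.20 (SD, n = 4), a difference of 1.01 (SE 0.18, limma adjusted p = 0.0407). Both slides gave the same direction, with 0.86 on the first and 1.15 on the second. Leaving out wild type 1 gave a difference of 1.13 (limma adjusted p = 0.00392), and leaving out any other array gave 0.91 to 1.10 with adjusted p-values of 0.0599 to 0.142.

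Claudin 1 is a sealing claudin of many epithelia. The brightest Cldn1 probe was at -3.44, -3.89, -3.51 and -3.74 in wild type and at -3.07, -3.20, -2.72 and -2.59 in VRK1-deficient testes. The second probe was at -4.58, -4.48, -4.64 and -4.15 in wild type and at -3.74, -3.74, -3.44 and -3.59 in VRK1-deficient testes. For both probes the VRK1-deficient arrays lay above every wild type array, and all 8 arrays were well above background. The differences were 0.75 (SE 0.17, limma adjusted p = 0.0494) and 0.83 (SE 0.14, limma adjusted p = 0.0407). Within slides the brightest probe gave 0.53 and 0.97 and the second probe 0.79 and 0.88. Without wild type 1 the brightest probe differed by 0.82 (limma adjusted p = 0.0129), and without any other array by 0.65 to 0.85 (adjusted p 0.0706 to 0.152).

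Because Gja1 and Cldn1 were the members called, the 250 bases before their annotated starts are shown, with motif matches in capitals. The sequences are those of RefSeq on GRCm38.p6, at chr10:56377050-56377299 on the plus strand for Gja1 and chr16:26371840-26372089 on the minus strand for Cldn1.
Gja1 promoter: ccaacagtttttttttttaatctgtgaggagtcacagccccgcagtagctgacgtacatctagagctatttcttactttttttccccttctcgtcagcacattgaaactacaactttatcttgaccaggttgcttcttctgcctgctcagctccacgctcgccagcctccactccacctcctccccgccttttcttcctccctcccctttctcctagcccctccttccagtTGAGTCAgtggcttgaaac
Cldn1 promoter: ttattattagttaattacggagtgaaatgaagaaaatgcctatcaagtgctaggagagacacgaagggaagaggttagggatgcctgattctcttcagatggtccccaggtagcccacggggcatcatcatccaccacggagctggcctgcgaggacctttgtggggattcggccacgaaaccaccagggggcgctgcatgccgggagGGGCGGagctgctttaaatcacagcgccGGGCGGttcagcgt
The capitals in Gja1 mark TGAGTCA, a match to the AP-1 motif TGANTCA that ends 12 bases before the start, and those in Cldn1 mark a pair of GC boxes, GGGCGG, ending 36 and 8 bases before the start. Both strands were searched for the GC box GGGCGG, the AP-1 motif TGANTCA, the E-box CACCTG, the TATA box TATAAA and the CCAAT box, and no match overlapped another in the sequences shown. The members called had no motif in common. Among the 8 members with a promoter entry, 6 held GGGCGG, 4 held CCAAT, 2 held TGANTCA, 2 held CACCTG and none held TATAAA. Over 32851 mouse promoters of the same length the shares were 32.7%, 33.8%, 6.75%, 17.2% and 12.4%. These matches describe letters only.

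Claudin 3 is a claudin reported at newly forming Sertoli cell tight junctions. Cldn3 was at -2.39, -1.66, -1.47 and -2.08 in wild type and at -2.55, -2.31, -2.63 and -2.93 in VRK1-deficient testes. Wild type 1 lay below the highest VRK1-deficient array, and the other wild type arrays lay above all VRK1-deficient arrays. The difference was -0.70 (SE 0.22, limma adjusted p = 0.0816), with -0.40 and -1.01 within the slides. Without wild type 1 the difference was -0.87 and passed the threshold (limma adjusted p = 0.0139), as did 28.4% of all tested probes. With any other array left out it was -0.80 to -0.56 and did not pass (limma adjusted p 0.1005 to 0.2066).

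Claudin 11 forms the parallel tight junction strands between Sertoli cells. Cldn11 was at 2.35, 2.28, 2.41 and 2.34 in wild type and at 2.11, 2.13, 1.87 and 2.15 in VRK1-deficient testes. The groups did not overlap, and VRK1-deficient was lower on every array, as it was for 7.31% of tested probes. The spread was small, at 2.35 ± 0.05 (SD, n = 4) against 2.06 ± 0.13 (SD, n = 4), and so was the difference of -0.29 (SE 0.11, limma adjusted p = 0.126).

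Claudin 5 is the main claudin of endothelial tight junctions and is also made in the seminiferous epithelium. Cldn5 was at 0.77, 0.42, 1.01 and 1.00 in wild type and at 1.06, 0.90, 1.41 and 0.85 in VRK1-deficient testes. The groups overlapped, and the difference of 0.26 had a 95% interval from -0.14 to 0.66 (limma adjusted p = 0.358). None of 8 endothelial markers, among them Pecam1, Cdh5, Kdr and Tek, was called. Their median difference was 0.28, and their summed linear level relative to the 75th percentile was 6.22 to 7.80 in wild type and 7.59 to 8.65 in VRK1-deficient testes. The part of these cells in the Cldn5 value was not tested.

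The 4 claudins had differences of both signs. Changes were compared between claudins by the difference of their log2 signals on the same array, which does not depend on how arrays are scaled, tested by exact permutation, two-sided, in 70 arrangements of the labels, and adjusted over the 6 pairs. The change of Cldn1 exceeded that of Cldn3 by 1.45, that of Cldn11 by 1.04 and that of Cldn5 by 0.49. The change of Cldn5 exceeded that of Cldn3 by 0.96 and that of Cldn11 by 0.54. In these 5 pairs the genotypes did not overlap (exact permutation p = 0.0286 each, the smallest the design allows, adjusted p = 0.0343). All 6 pairs reuse the same 4 profiles, among them the called Cldn1, so they are not separate results. The share of such pairs among all tested probes was not computed. Of single tested probes, 16.7% had no overlap between genotypes. Cldn3 and Cldn11 differed in their change by -0.42, with overlapping groups (exact permutation p = 0.2, adjusted p = 0.2).

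**Figure D2:**
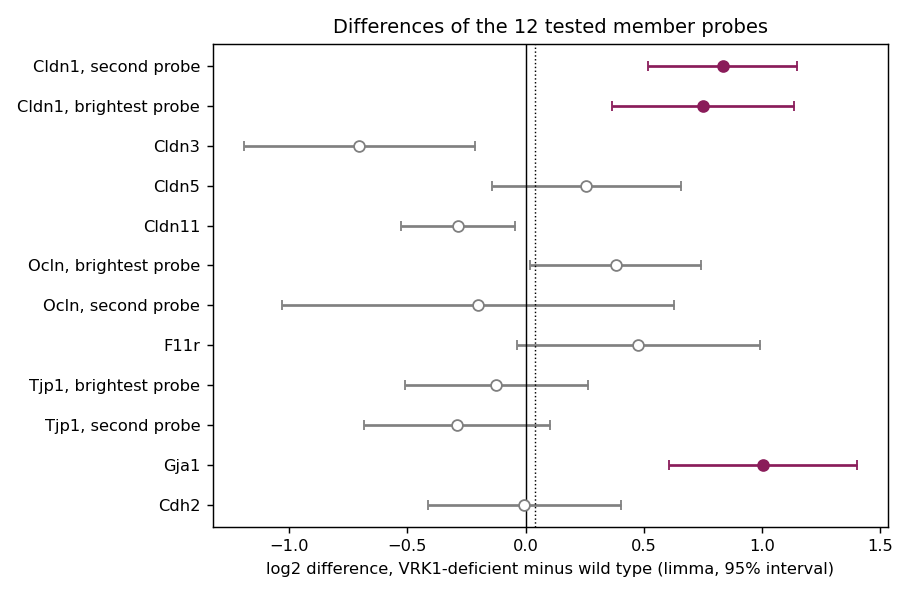
Log2 difference, VRK1-deficient minus wild type, of each tested probe of the barrier junction genes with its limma 95% interval; filled points are adjusted p under 0.05, the solid line is 0 and the dotted line is the median of all tested probes. Both Cldn1 probes and Gja1 lie to the right, at 0.75, 0.83 and 1.01, and Cldn3 is the lowest at -0.70.

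The genes of occludin and JAM-A, the other transmembrane proteins of the tight junction, were higher in mean without passing the test. Ocln was at -0.67, -1.22, -0.75 and -1.18 in wild type and at -0.47, -0.62, -0.79 and -0.43 in VRK1-deficient testes. All VRK1-deficient arrays but the third exceeded every wild type array, and the difference was 0.38 (SE 0.16, limma adjusted p = 0.156). Without wild type 1 it was 0.47 and just passed (limma adjusted p = 0.0492), as did 28.4% of all tested probes. With any other array left out it was 0.29 to 0.45 and did not pass (limma adjusted p 0.1354 to 0.3326). A second Ocln probe, whose ends lie 1194 bases apart in the genome, was well above background on 3 wild type and 2 VRK1-deficient arrays and differed by -0.20 (limma adjusted p = 0.741), opposite in sign to the first. F11r, which encodes JAM-A, was at 6.10, 5.74, 5.38 and 5.27 in wild type and at 6.19, 5.96, 5.71 and 6.54 in VRK1-deficient testes. Wild type 1 and 2 lay within the VRK1-deficient range, and the difference was 0.48 (SE 0.23, limma adjusted p = 0.199).

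The genes of the scaffold and the classical cadherin of the barrier showed no called change. Tjp1 encodes ZO-1, the scaffold beneath claudins and occludin, and was at -0.16, -0.11, 0.44 and -0.30 in wild type and at -0.06, -0.27, -0.30 and 0.00 in VRK1-deficient testes. The groups overlapped almost entirely, with a difference of -0.12 (95% interval -0.51 to 0.26, limma adjusted p = 0.658), and a second Tjp1 probe gave -0.29 (limma adjusted p = 0.297). Cdh2 encodes N-cadherin, which joins Sertoli cells to each other and to germ cells, and was at -1.58, -1.94, -1.24 and -2.00 in wild type and at -1.63, -1.79, -1.85 and -1.51 in VRK1-deficient testes. The VRK1-deficient arrays lay within the wild type range, and the difference of -0.01 had an interval of -0.41 to 0.40 (limma adjusted p = 0.986). The remaining pair of Cdh2 probes, designed to other transcripts, was not well above background on any array.

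The other genes of the same junctions were read from a list of 83 genes, of which 82 had a probe and 75 were tested. In all, 1 was called higher and 2 lower, beside 1.67% and 1.99% of all tested probes. Their median difference was 0.14, with 50 above and 25 below 0. Without wild type 1, 27 of them were called, beside 28.4% of all tested probes, and with any other array left out 0 or 1 was. The genes called were all from the tight junction list, and their share was near the 3.66% called among all tested probes. Jam2, a junctional adhesion molecule, was at 3.12, 2.57, 2.61 and 2.64 in wild type and at 3.67, 3.36, 3.27 and 3.40 in VRK1-deficient testes, a rise of 0.69 without overlap (SE 0.15, limma adjusted p = 0.0492). A second Jam2 probe overlapped between groups at 0.83 (limma adjusted p = 0.101), and the mean of the probes missed the threshold (limma adjusted p = 0.0601).

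Marveld2 encodes tricellulin, which seals the corners where cells of the epithelium meet. Its brightest probe was at -0.87, -0.83, -0.66 and -0.80 in wild type and at -1.67, -1.48, -1.54 and -1.73 in VRK1-deficient testes. It fell by 0.81 without overlap (SE 0.11, limma adjusted p = 0.0310), and a second probe fell by 0.99 (limma adjusted p = 0.0497). Tjp3, which encodes the scaffold ZO-3, was at -2.72, -1.28, -1.54 and -1.17 in wild type and at -3.67, -2.79, -3.04 and -3.47 in VRK1-deficient testes. It fell by 1.56 (SE 0.34, limma adjusted p = 0.0482), and the wild type 1 array was the closest to the VRK1-deficient arrays. With slide as a block, Tjp3 (limma adjusted p = 0.0517) and Jam2 (limma adjusted p = 0.0506) missed the threshold and Marveld2 passed it (limma adjusted p = 0.0473). Tjp3 and Jam2 also missed it with quantile normalization (limma adjusted p = 0.0519 each). By the methods' t-test their adjusted p-values were 0.102 and 0.0856. With any array but wild type 1 left out, neither of them passed. Among the same fits Marveld2 passed only without wild type 3 (limma adjusted p = 0.0457), and was otherwise at 0.0673 to 0.1155. Marveld2 also missed the threshold on slide 1 alone, on slide 2 alone and with no filter (limma adjusted p = 0.500, 0.0600 and 0.0658).

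Tjp3 was thus called lower in the main fit, whereas the scaffold gene Tjp1 was at -0.12 without passing the test. Among 21 other tight junction genes tested the median difference was 0.15, and among 14 adherens junction genes it was 0.23, with none called. Of 13 genes of the ectoplasmic specialization, an actin-based junction of Sertoli cells with each other and with germ cells, none was called and the median was 0.24. The 6 tested genes of the gap junction list were connexin genes and the pannexin gene Panx1, which was at -0.45. Their median with Panx1 included was -0.37, with 5 below 0 and none called, on the opposite side of 0 from Gja1. Gjc1, which encodes connexin 45, differed by -0.59 (limma adjusted p = 0.0862). Of 5 desmosome genes tested, 4 were above 0, the median was 0.80 and none was called by its brightest probe. Dsp, which encodes the desmosomal plaque protein desmoplakin, differed by 1.45 (limma adjusted p = 0.0603), and 1 further Dsg2 probe rose by 1.07 (limma adjusted p = 0.0473). A further probe of the tight junction gene Amotl1 fell by 1.14 (limma adjusted p = 0.0407), while its brightest probe was at 0.18 (limma adjusted p = 0.564), so the probes disagreed. The 16 regulators had a median of 0.12 with none called.

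**Figure D3:**
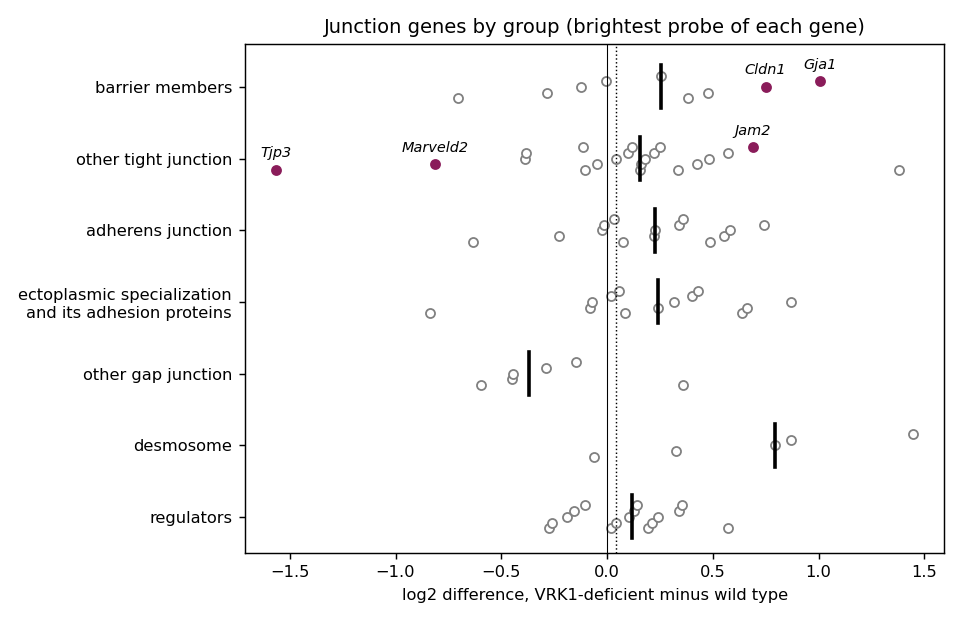
Log2 difference, VRK1-deficient minus wild type, of the brightest probe of each tested gene, for the barrier junction genes and 6 lists of other junction genes; filled named points are adjusted p under 0.05, black bars are list medians, the solid line is 0 and the dotted line is the median of all tested probes. Cldn1, Gja1 and Jam2 lie to the right, Marveld2 and Tjp3 to the left, and the desmosome list has the highest median at 0.80.

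Markers of the cells that make these junctions are given beside the members. None of 10 Sertoli cell markers was called, and 9 were above 0 with a median of 0.36. The remaining marker was at -1.08. An unadjusted limma p under 0.05 was found for 5 markers above 0 and for this 1 below, beside 28.8% of all tested probes. The markers named next were the first of the list, and the marker at -1.08 was not among them. Amh, a hormone of immature Sertoli cells, differed by 1.19 (limma adjusted p = 0.115), Sox9 by 0.21 (limma adjusted p = 0.546), Wt1 by 0.28 (limma adjusted p = 0.333) and Clu by 0.25 (limma adjusted p = 0.245). The summed linear Sertoli level was 240.4 to 331.0 in wild type and 302.3 to 352.1 in VRK1-deficient testes, and wild type 1 had the highest mean of the wild type arrays, at 3.39. All 8 germ cell markers were below 0 with a median of -1.07, and 1, Dmrtb1, was called lower (difference -1.80, limma adjusted p = 0.0492). Ddx4 differed by -0.83 (limma adjusted p = 0.117), Dazl by -0.96 (limma adjusted p = 0.112), Sycp3 by -1.40 (limma adjusted p = 0.132) and Kit by -0.85 (limma adjusted p = 0.0632). The summed germ cell level was 39.96 to 126.4 in wild type and 25.21 to 50.23 in VRK1-deficient testes. Over all marker lists 2 of 44 tested genes were called, beside 3.66% of all tested probes, 20 without wild type 1, beside 28.4%, and 0 with any other array left out.

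**Figure D4:**
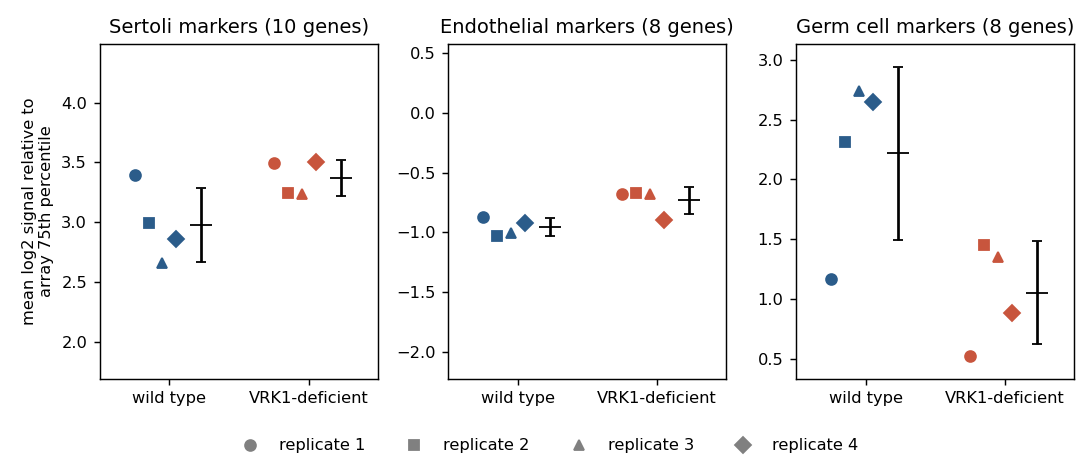
Mean log2 signal of the Sertoli (10 genes), endothelial (8 genes) and germ cell (8 genes) markers on each array, over that array's 75th percentile, for wild type (blue) and VRK1-deficient (red); shapes give the replicate number and bars the mean ± SD, and all panels span the same number of log2 units. Wild type 1 is the highest wild type array for Sertoli markers, at 3.39, and the lowest for germ cell markers, at 1.17.

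The members were therefore also given relative to the mean of the 10 Sertoli markers of each array, a scaling added after the data were seen. It shifted the median difference of all probes from 0.04 to -0.35, so a member is read against that median. Gja1 was then at 0.61 (limma adjusted p = 0.0753) and Cldn1 at 0.36 (limma adjusted p = 0.253). Cldn11 was at -0.68 (limma adjusted p = 0.0650) and Cldn3 at -1.10 (limma adjusted p = 0.0688), and no member was called. Over all tested probes only 19 were called with this scaling (1 higher, 18 lower), against 986 in the main fit. The lack of calls among the members therefore does not set them apart from other probes. Since the scaling moves every probe by the same amount, the order of the members is unchanged by construction. Cldn5 was at -0.14 and Ocln at -0.01, both above the median of all probes. The part that the marker levels have in the member differences was not tested beyond this scaling.

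Among the remaining marker lists, the peritubular one held the only called gene. None of 5 Leydig markers (among them Cyp17a1, Cyp11a1, Hsd3b1 and Star) was called, with a median of 0.20 and a summed level of 33.52 to 51.12 in wild type and 44.01 to 57.11 in VRK1-deficient testes. None of 4 macrophage markers (Csf1r, Adgre1, Cd68 and Cd14) was called, with a median of 0.09 and summed levels of 2.50 to 3.38 and 2.96 to 3.35. Of 4 peritubular myoid markers, Acta2, Myh11 and Des were not called and Cnn1, a smooth muscle calponin, fell by 0.99 (limma adjusted p = 0.0445), with a list median of -0.07 and summed levels of 121.8 to 135.3 and 106.2 to 133.7. Of the excurrent duct markers, whose epithelium makes Cldn1, Pax2 and Krt19 were tested and differed by 0.19 and 0.36 (limma adjusted p = 0.400 and 0.200), Cdh16 was well above background on 2 wild type arrays, and Pax8 was so on none. Their summed level was 0.122 to 0.155 in wild type and 0.129 to 0.182 in VRK1-deficient testes. None of the 3 red blood cell markers (Hba-a1, Hbb-b1 and Alas2) was called, with a median of -0.11 and summed levels of 90.72 to 188.6 and 93.15 to 197.4.

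The genes whose profile over the 8 arrays was closest to that of a member were found among 13100 genes, by the root mean square difference of profiles centered on their own means. For Gja1 they were Frmd4a at 0.10, Lgals4 at 0.11 and Mill2 at 0.14 log2 units. For Cldn11 they were Fcsk and Cnnm2 at 0.06 each and Amd2 at 0.06, the last a near copy of Amd1 whose signal is uncertain. For Cldn5 they were B3galnt1 at 0.08, Igfbp6 at 0.10 and Cnpy4 at 0.11. These are descriptions of likeness over 8 arrays, 4 of each genotype.

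The calls on the members depended on which arrays entered. Without wild type 1, Cldn1, Cldn3, Ocln and Gja1 were called, 4 of 9 members, beside 28.4% of all tested probes. With any other array left out, no member was called at the adjusted threshold, while 4 to 5 had an unadjusted limma p under 0.05, beside 19.7% to 27.5% of all tested probes. With each array left out in turn, directions by the brightest probe held for Gja1, Cldn1, Cldn3, Cldn11, Cldn5, Ocln and F11r, and changed for Tjp1 and Cdh2.

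**Figure D5:**
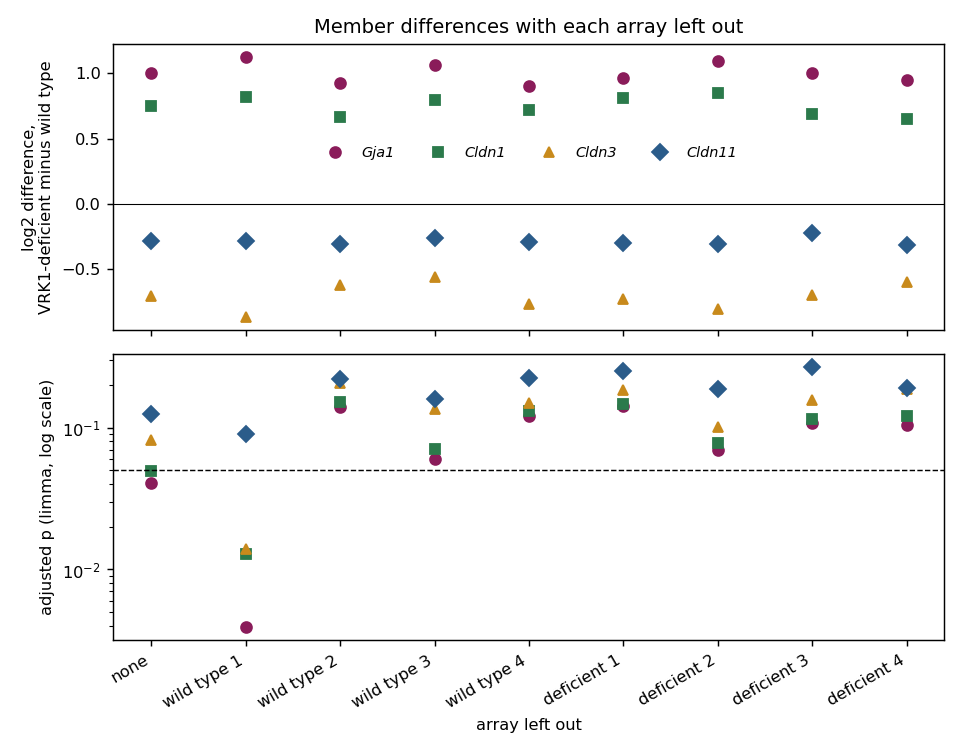
Upper panel, log2 difference (VRK1-deficient minus wild type) of Gja1, Cldn1, Cldn3 and Cldn11 by their brightest probe with no array or 1 array left out; lower panel, the limma adjusted p on a log axis, with the 0.05 threshold dashed. The differences stay on 1 side of 0, and adjusted p falls below the threshold for Gja1 and Cldn1 with no array left out and for Gja1, Cldn1 and Cldn3 without wild type 1.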

How the data were processed

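Gene expression was measured in testes of 4 wild type and 4 VRK1-deficient mice at postnatal day 8. The authors labeled total RNA with Cy3, hybridized each sample to 1 array and extracted signals with Agilent Feature Extraction (version 9.5.3.1 per the submitters' processing notes), which subtracts background. The deposited values are linear processed intensity, not scaled between arrays, and the deposited value table holds the same values. The methods name GeneSpring GX, without stating a normalization.

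For this report, log2 intensity minus the log2 of each array's 75th percentile was computed over 43379 non-control spots. Outlier spots (58 to 134 per array) were left out, and spots of a probe were averaged. Between 63.6% and 69.5% of spots were well above background, and the number of arrays limits the precision. A probe entered the test when 4 or more of the 8 arrays had it well above background. limma 3.58.1 was used in R 4.3.3 with lmFit, then eBayes, and the brightest probe stood for its gene. Every member probe was named, as were listed junction genes that were called and the first markers of each cell type. The members and lists were chosen with earlier results of these data known. On simulated data, 74.5% of 200 probes changed by 1 to 2 log2 units were recovered. The simulated noise was independent between probes, without the variation that probes of an array share. Every member but Gja1 differed by less than 1 log2 unit, so this share does not give the recovery of the members. Positions are mm7 and were not converted. Alternatives covered scaling, background, filter, test, blocks, slides and left-out arrays. Figures were drawn with matplotlib.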

Additional observations from a re-analysis of the deposited data

Results flagged for a closer look

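Within the VRK1-deficient group, Cldn11 was at 1.87 on array 3 and between 2.11 and 2.15 on the other 3 arrays, a gap of 0.854 of the group's whole range. It was the only value set apart in this way among 24 groups of 4 arrays checked (12 member probes in both genotypes), where chance alone gives about 1 in 20. Without that array Cldn11 differed by -0.22 (limma adjusted p = 0.268).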

How the results depend on the processing

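Of the members, 2 were called with limma under quantile normalization, normexp background, the stricter filter, intensity trend with robust variances, the mean of a gene's probes, slide as a block and the replicate block. Signals not scaled between arrays left 1, Gja1. The members called were 0 with no filter on dim probes (4 at an unadjusted p under 0.05), 0 with Sertoli scaling (3 unadjusted), 0 on slide 1 alone (1 unadjusted), 0 on slide 2 alone (4 unadjusted) and 0 by the methods' t-test after adjustment (4 unadjusted). With 1 array left out the count was 0 to 4, with 4 only without wild type 1.

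Of the other junction genes, limma called 3, and 0 with Sertoli scaling (22 unadjusted), 0 with no filter (21 unadjusted), 0 on slide 1 alone (8 unadjusted), 1 with slide as a block (Marveld2), 5 by the mean of a gene's probes, 6 with the stricter filter, 7 with the intensity trend, 9 with the replicate block, 11 with normexp, and 0 to 27 with 1 array left out, 27 without wild type 1. The unadjusted counts are to be read beside those over all probes given above for the same settings. The cell type markers called were 2, then 1 with quantile normalization and 0 to 20 with 1 array left out.

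Over all probes 986 were called (451 higher, 535 lower), against 3 on slide 1 alone, 17 with no filter, 19 with Sertoli scaling (1 higher, 18 lower), 162 by the t-test, 641 with slide as a block, 1915 with the intensity trend, 2275 with the replicate block and 3 to 7655 with 1 array left out, 7655 without wild type 1 and at most 68 otherwise. Unscaled signals gave 64 higher and 852 lower and a median difference of -0.14. Same-numbered samples correlated at -0.14 to 0.47 in their deviations from the group means. Wild type 1, 2 and 3 each correlated best with the VRK1-deficient array of the same number, and wild type 4 with VRK1-deficient 3. The numbers were not taken as pairs in the main fit, and the replicate block gives the result when they are.

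Signs changed for Cdh2 (0.0148 with normexp, 0.0146 with quantile normalization, 0.052 on slide 1, -0.11 to 0.15 with 1 array left out), and for Tjp1 (-0.21 to 0.0345 with 1 array left out). Sertoli scaling moves all probes alike, and it put Cldn5 at -0.1376 and Ocln at -0.0139, both above the median of all probes at -0.35. Normexp gave 0.52 and 0.47 for the Cldn1 probes and -0.40 for Cldn3. Vrk1 was at -3.67 on slide 1 alone (limma adjusted p = 0.0636) and -2.79 with normexp. The cause of these changes was not tested. Dim probes limit what can be read, as for the second Ocln probe.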
